A study of Mus musculus with 16 samples.

Results

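Collagen that leaves a cell as a usable fibre has passed through hydroxylases, folding chaperones, export carriers, propeptide-cutting proteases and crosslinking oxidases. The genes described here are 37 genes of that route and of the unfolded protein response, taken by symbol from an expression table of sorted mouse femur cells. They are 37 of its 22559 genes, and fall into 8 hydroxylation genes, 11 folding chaperones, 3 export genes, 4 propeptide cleavage genes, 5 crosslinking genes and 6 unfolded protein response genes. The rule names genes and uses no measured value, but it was written with earlier results of these data known. All 37 passed the filter on low values (at least 10 normalized counts in at least 4 libraries).

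RNA was sequenced from 16 libraries of cells that flow cytometry separated from the femur at day 6 after birth, with 4 libraries in each of 4 groups. Every group carried the genotype CTSK-cre+ mTMG on a C57/B6 background (written C57/ B6 for PSC), with no treatment, and no group lacked Cre. The Ctsk promoter drives Cre, and in mTmG reporter mice Cre turns membrane Tomato off and membrane GFP (mGFP) on in a cell and all its progeny, so the colour marks a lineage and not current Ctsk activity. PSC are labelled periosteal stem cells, PP1 and PP2 are progenitor populations of type 1 and type 2 from the periosteum, and MSC are mGFP-negative mesenchymal stem cells labelled endosteal. Per the labels, the cells came from 1 litter on 1 day and were not pooled. The labels do not say whether the 4 libraries of a group are 4 animals, so the p-values measure the spread between these libraries, which may be technical.

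New procollagen chains enter the endoplasmic reticulum (ER), where prolyl and lysyl hydroxylases modify them, peptidyl-prolyl isomerases and disulfide isomerases help the chains fold and pair, and the collagen chaperone HSP47 binds the finished triple helix. The helix leaves in COPII-coated carriers, loses its propeptides to procollagen proteinases, and is tied into fibrils by lysyl oxidases. When folding demand exceeds capacity, the unfolded protein response raises chaperone transcription. In bone and cartilage these steps are known from inherited disease: loss of CRTAP, PPIB, SERPINH1, FKBP10, PLOD2 or BMP1 in people gives brittle bones.

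A library held 22.3 to 48.4 M recovered reads, and 11653 to 15696 genes had at least 1 read. The MSC libraries held 39.5 to 48.4 M reads and 15506 to 15696 genes. PSC held 28.5 to 32.7 M reads, PP1 22.3 to 32.7 M and PP2 24.3 to 41.2 M, with 11653 to 13919 genes. Depth thus goes with group in the comparisons with MSC, and its part was not tested. Values are normalized counts, the authors' gene read counts divided by 1 size factor per library. The surface gates are not in the labels. Ctsk, whose promoter drives Cre, was at 9643 to 13927 normalized counts in PP1, 6377 to 8071 in PP2, 2293 to 3457 in PSC and 1971 to 2271 in MSC. Summed chondrocyte markers (8 genes) were at 1268432 to 1710006 in PSC, 1119533 to 1463612 in MSC, 411355 to 491866 in PP1 and 436478 to 537693 in PP2, none of them at 0 in a group. Summed fibroblast markers (7 genes) were at 27985 to 44481 in PSC, 40781 to 50899 in MSC, 112033 to 160967 in PP1 and 115097 to 156310.1 in PP2, again with none at 0. All 8 chondrocyte markers were higher and all 7 fibroblast markers lower in PSC than in PP1 and in PP2, and the same 8 and 7 separated MSC from PP1 and from PP2 in those directions. Hypertrophic chondrocyte markers (6 genes) summed to 166434 to 240529 in PSC, 101021 to 153249.7 in MSC, 22125 to 29878 in PP1 and 14634 to 38060.2 in PP2. Osteoblast markers (7 genes) summed to 10692 to 12172, 10657 to 13959, 3541 to 7127 and 2399 to 2593 in the same order. Schwann cell markers (5 genes) reached 14567 to 21482 in MSC against 6658 to 8441 in PSC, with Foxd3 at 0 in PP1 and PP2. Osteoclast markers (7 genes) summed to 609 to 1547 in PSC, 6087 to 7663 in MSC, 2768 to 15655 in PP1 and 590 to 2534 in PP2. Skeletal muscle markers (7 genes) summed to 551 to 762, 244 to 371, 1034 to 2849 and 3442 to 7368 in the same order. Blood cell markers (7 genes) summed to 865 to 4949, 376 to 1275, 890 to 8383 and 264 to 3308. Endothelial markers (6 genes) summed to 58.0 to 764, 826 to 1385, 135 to 1116 and 65.4 to 247. Calcr was at 0 in all 4 groups, and Ocstamp, Dcstamp and Emcn in PP2. Myh3 was at 0 in PSC and PP1, Myh8 in PSC, and Ptprc in PSC and PP2. In bulk libraries fewer cells of a type and less RNA per cell cannot be told apart. Earlier results on these data set PP2 replicates 1 and 3 apart from the other PP2 libraries, so member and list counts against PP2 are also given without them.

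Of the 37 genes, 30 differed among the 4 groups (moderated F test in limma, adjusted p below 0.05 after Benjamini-Hochberg adjustment over 13797 genes), against 44.8% of all genes tested. Every adjusted p below comes from this limma fit, ± after a mean or share is the SD over 4 libraries, and a fold is 2 to the power of the difference between mean log2(normalized count + 1) values. The 7 that did not pass were Crtap, Fkbp10, Hsp90b1, Sec24d, Lox, Ddit3 and Dnajb9. PSC held the highest mean for 20 of the 30 genes (66.7%), MSC for 5, PP1 for 3 and PP2 for 2. Over all 6187 genes that differed, PSC held the highest mean for 36.9%. That share was not computed for genes as abundant as the members, of which more were called higher than lower in PSC (below).

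By pair, PSC exceeded MSC for 18 genes and fell below it for 6, 24 in all, where 26.3% of all genes were called (12.1% higher, 14.2% lower). Against PP1, 18 were higher in PSC and 5 lower, with 31.2% of all genes called (16.1% and 15.1%). Against PP2, 14 were higher and 7 lower, with 32.8% called (17.6% and 15.2%). Between PP1 and PP2 1 gene was called, Loxl4, where 0.834% of all genes were (0.478% higher and 0.355% lower in PP1). Of the members 7 had an unadjusted p below 0.05 there; edgeR called none and DESeq2 1. PP1 was higher than MSC for 5 genes and lower for 14, with 21.4% of all genes called (8.88% higher and 12.6% lower). PP2 was higher than MSC for 6 and lower for 11, with 24.0% called (9.28% and 14.7%). Without PP2 replicates 1 and 3, 16 genes were called between PSC and PP2 (11 higher and 5 lower in PSC), 14 between PP2 and MSC and 1 between PP1 and PP2, and 30 passed the F test. The calls this ended were those of P4hb, Pdia4, Bmp1, Creb3l1 and Sdf2l1 between PSC and PP2 and of P4ha1, Pdia3, Pdia4 and Sec23a between PP2 and MSC. It also added a call between PP2 and MSC, of a folding chaperone lower in PP2. The 6 comparisons share libraries, so their counts are not independent. Counted by libraries that do not overlap, 25 of the 37 genes separated PSC from MSC (38.7% of all genes did), 23 PSC from PP1 (28.9%), 20 PSC from PP2 (28.5%), 3 PP1 from PP2 (4.74%), 20 PP1 from MSC (30.1%) and 20 PP2 from MSC (30.5%).

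These are abundant transcripts: 34 of the 37 lay above the median of all tested genes (363 normalized counts), and abundant genes are called more often. Among the 3768 genes with a mean of at least 1000 normalized counts, 51.6% were called for PSC against MSC, and 22 of the 32 members at that level. Higher in PSC were 35.7% of these genes and 18 of the 32 members, and lower 15.9% and 4. Against PP1 the figures were 53.0% and 20 members (31.7% and 17 higher, 21.3% and 3 lower). Against PP2 they were 54.5% and 18 (33.2% and 13 higher, 21.3% and 5 lower), so the members' share of calls there (18 of 32) lay near that of genes as abundant. They were 1.43% and 1 for PP1 against PP2, 36.5% and 16 for PP1 against MSC, and 37.6% and 15 for PP2 against MSC. The median log2 difference over the 37 genes was 0.39 for PSC against MSC, where the median of all genes was -0.18, 0.22 against PP1 (0.04 over all genes) and 0.17 against PP2 (0.08). At a mean of at least 1000 the medians were 0.41 for the members and 0.20 for all such genes against MSC, 0.29 and 0.12 against PP1, and 0.20 and 0.12 against PP2. At that level they were -0.21 and 0.07 for PP1 against MSC, and -0.18 and 0.07 for PP2 against MSC. Counts by class follow, and differences between classes were not tested.

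**Figure D1:**
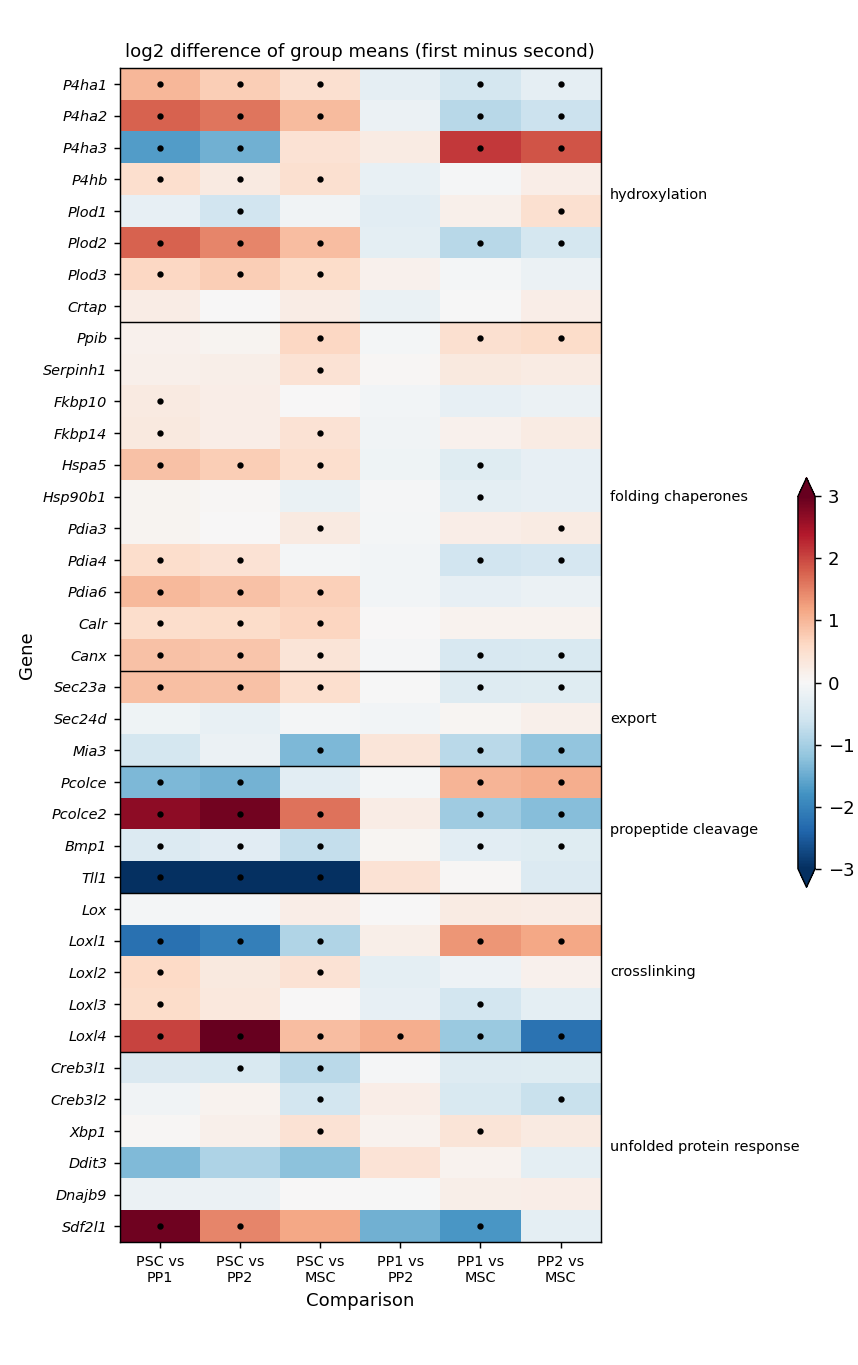
Log2 difference of the group means (first minus second group; colour, red for higher in the first group, cut off at 3 in either direction) for the 37 genes in the 6 comparisons, rows ordered by class. A black dot marks an adjusted p below 0.05 in limma; PSC columns are mostly red for hydroxylation and folding genes and blue for Pcolce, Bmp1, Tll1 and Loxl1, and the PP1 against PP2 column has a single dot, at Loxl4.

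Among the 8 hydroxylation genes, P4ha1, P4ha2, P4hb, Plod2 and Plod3 were higher in PSC than in PP1, PP2 and MSC alike, while P4ha3 was lower in PSC than in PP1 and PP2 and Plod1 lower than in PP2. Without PP2 replicates 1 and 3 the PP2 counts were 4 higher and 2 lower in place of 5 and 2, the call of P4hb being the one lost. Against PP2, 33.2% of genes with a mean of at least 1000 normalized counts were called higher in PSC and 21.3% lower. The chondrocyte markers above were also higher, and the fibroblast markers lower, in PSC than in PP1 and PP2, and their part was not tested. P4ha1, P4ha2 and P4ha3 encode the alternative catalytic alpha subunits of prolyl 4-hydroxylase, whose 4-hydroxyproline keeps the triple helix stable at body temperature. P4ha2 measured 16205, 17690.4, 13316 and 14707 normalized counts in the 4 PSC libraries, 6696, 9082, 8099 and 8202 in MSC, 5097, 4767, 3830.5 and 4439 in PP1 and 4669, 5156, 4903 and 5707 in PP2. Every PSC library exceeded every other library, MSC came next, and PP1 and PP2 overlapped. P4ha2 was higher in PSC than in PP1 by 3.41-fold (log2 difference 1.77 ± 0.11 SE, adjusted p = 8.19e-10), than in PP2 by 3.02-fold (adjusted p = 3.03e-09) and than in MSC by 1.93-fold (adjusted p = 9.76e-06). It was lower in PP1 than in MSC by 1.77-fold (adjusted p = 3.94e-05), and lower in PP2 by 1.56-fold (adjusted p = 0.000420).

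P4ha1, which encodes the main alpha subunit in most tissues, stood at 19439.9, 17081, 16954 and 17074 normalized counts in the 4 PSC libraries, 13245, 11473, 13851 and 12133 in MSC, 8344, 8448, 9262 and 9124 in PP1 and 10208, 9914, 11445 and 10751 in PP2. Its 4 groups did not overlap and ran PSC, MSC, PP2, PP1 from high to low, with PSC replicate 1 above the other PSC libraries. P4ha1 was higher in PSC by 2.00-fold (adjusted p = 2.90e-08) against PP1, 1.67-fold (adjusted p = 1.50e-06) against PP2 and 1.39-fold (adjusted p = 0.000420) against MSC. It was lower in PP1 than in MSC by 1.44-fold (adjusted p = 0.000194). The smaller PP2 to MSC difference (1.20-fold, adjusted p = 0.0326) was lost when 5 of the 16 libraries were left out one at a time (PP2 replicates 1, 2 and 4 and MSC replicates 1 and 3), the highest adjusted p being 0.0980 (MSC replicate 3 omitted).

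P4ha3 ran the other way. P4ha3 gave 431, 392, 475 and 353 normalized counts in the 4 PSC libraries, 412, 239, 342 and 246 in MSC, 1967, 756, 1678 and 1210.2 in PP1 and 1796, 968, 881 and 1026 in PP2. PP1 and PP2 overlapped and both lay above every PSC and MSC library, and PSC and MSC overlapped. It was lower in PSC than in PP1 by 3.21-fold (log2 difference -1.68 ± 0.28 SE, adjusted p = 0.000116) and than in PP2 by 2.73-fold (adjusted p = 0.000501), and lower in MSC than in PP1 by 4.36-fold (adjusted p = 2.09e-05) and than in PP2 by 3.70-fold (adjusted p = 6.93e-05). Per kilobase of exon, P4ha3 made up 13.3% ± 4.50 (SD, n = 4) of the 3 alpha subunit transcripts in PP1 and 9.89% ± 3.50 in PP2, but 1.92% ± 0.303 in PSC and 2.21% ± 0.561 in MSC. P4ha2 made up 35.9% ± 2.81 in PSC, 28.9% ± 4.05 in MSC, 22.0% ± 3.0 in PP1 and 21.8% ± 2.03 in PP2. The per-kilobase ratio of P4ha2 to P4ha3, a pair chosen after its values were seen, was 14.1 to 22.7 in PSC libraries, 8.17 to 19.1 in MSC, 1.15 to 3.17 in PP1 and 1.31 to 2.80 in PP2. P4hb, the shared beta subunit and itself a protein disulfide isomerase, averaged 114023 ± 3287 in PSC, 82468 ± 6545 in MSC, 81122 ± 6323 in PP1 and 94271 ± 2376 in PP2 (SD, n = 4 each). It was higher in PSC than in PP1 by 1.41-fold (adjusted p = 0.000913) and than in MSC by 1.39-fold (adjusted p = 0.00216). Its difference from PP2, 1.21-fold (adjusted p = 0.0453), was lost in 12 of 16 leave-one-out fits (any PSC or PP2 library, PP1 or MSC replicates 2 or 4), the highest adjusted p being 0.102 (PSC replicate 2 omitted).

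Plod1, Plod2 and Plod3 encode lysyl hydroxylases, of which PLOD2 acts on the telopeptides that later form crosslinks. Plod2 reached 22247, 23055, 17361 and 18194 normalized counts in the 4 PSC libraries, 10046, 11512, 10152 and 10279 in MSC, 5626, 6484, 5699.9 and 5948 in PP1 and 5494, 7501, 7858 and 8443 in PP2. PSC lay above all other libraries, MSC above all PP1 and PP2 libraries, and PP1 and PP2 overlapped. The difference was 3.38-fold (log2 difference 1.76 ± 0.12 SE, adjusted p = 2.04e-09) against PP1, 2.77-fold (adjusted p = 1.99e-08) against PP2 and 1.91-fold (adjusted p = 2.20e-05) against MSC. Plod1, the helix-directed family member, averaged 8925 ± 468 in PSC, 9578 ± 1201 in MSC, 10635 ± 383 in PP1 and 13401 ± 1989.7 in PP2, and was lower in PSC than in PP2 (1.49-fold, adjusted p = 0.000221) but was not called against PP1 (adjusted p = 0.0693) or MSC (adjusted p = 0.553). Plod3, which also carries glycosyltransferase activity, averaged 7143 ± 449 in PSC, 4887 ± 760.1 in MSC, 4643 ± 205 in PP1 and 4269 ± 298 in PP2 and was higher in PSC than in each other group (fold 1.54, 1.67 and 1.47 against PP1, PP2 and MSC). Antisense Znhit1 overlaps 11.9% of its exon bases, and whether counting used strand is not stated. Per kilobase, Plod2 was 56.2% ± 3.99 of the lysyl hydroxylase transcripts in PSC, 44.0% ± 3.34 in MSC, 29.8% ± 1.80 in PP1 and 31.6% ± 3.36 in PP2 (SD, n = 4 each). Plod1 held 19.9% ± 1.87, 31.8% ± 2.31, 42.5% ± 1.44 and 46.2% ± 3.12 in the same order. By this measure Plod2 was the leading form in PSC and MSC and Plod1 in PP1 and PP2. In MSC that order depends on the length divisor. Before division the MSC means were 10497 for Plod2 and 9578 for Plod1, and in MSC replicate 3 Plod1 was higher (11298 against 10152). Crtap, a partner of the prolyl 3-hydroxylase complex, averaged 26390.1 ± 1665 in PSC, 22798 ± 1429 in MSC, 22632 ± 1080.1 in PP1 and 26068 ± 1907 in PP2 and did not pass the F test (adjusted p = 0.0525). On GRCm38 (GENCODE M21), P4ha2 (ENSMUSG00000018906) spans 54100095 to 54131665 on chromosome 11, P4ha1 (ENSMUSG00000019916) spans 59323296 to 59373304 on chromosome 10, P4ha3 (ENSMUSG00000051048) spans 100285520 to 100319699 on chromosome 7 and Plod2 (ENSMUSG00000032374) spans 92542223 to 92608428 on chromosome 9.

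**Figure D2:**
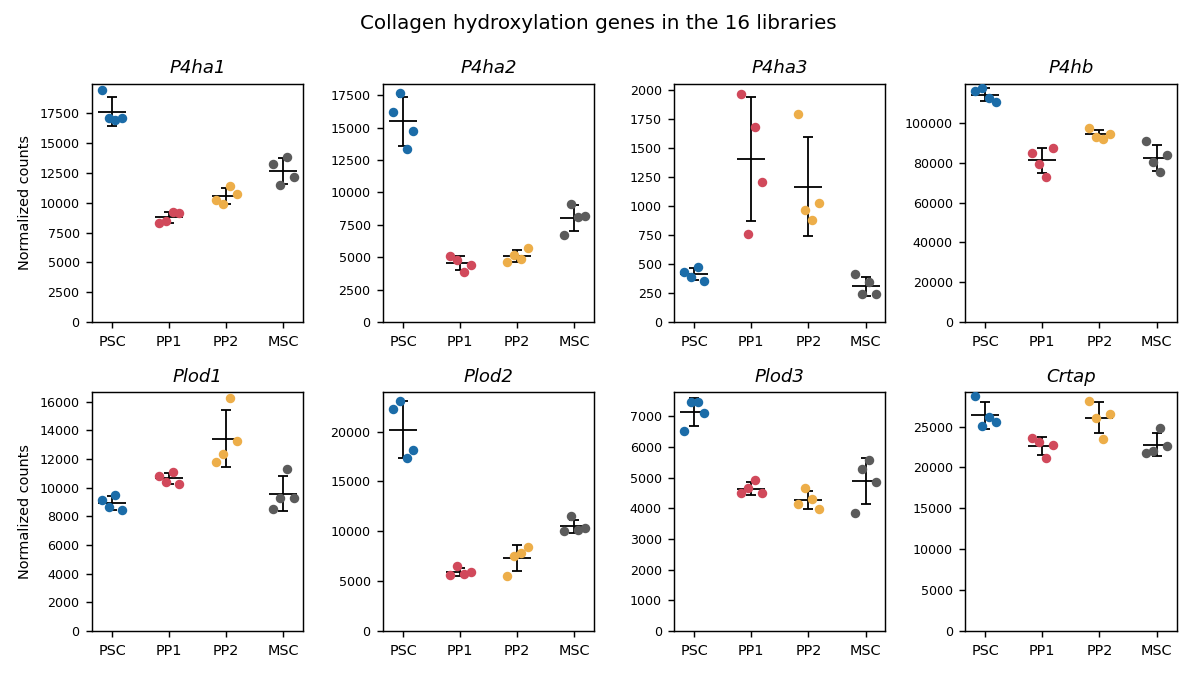
Normalized counts of the 8 hydroxylation genes in the 16 libraries (points), with the group mean (line) and SD (bars), n = 4 a group. P4ha2 and Plod2 are highest in the 4 PSC libraries (P4ha2 13316 to 17690.4, Plod2 17361 to 23055), and P4ha3 is highest in PP1 and PP2.

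**Figure D3:**
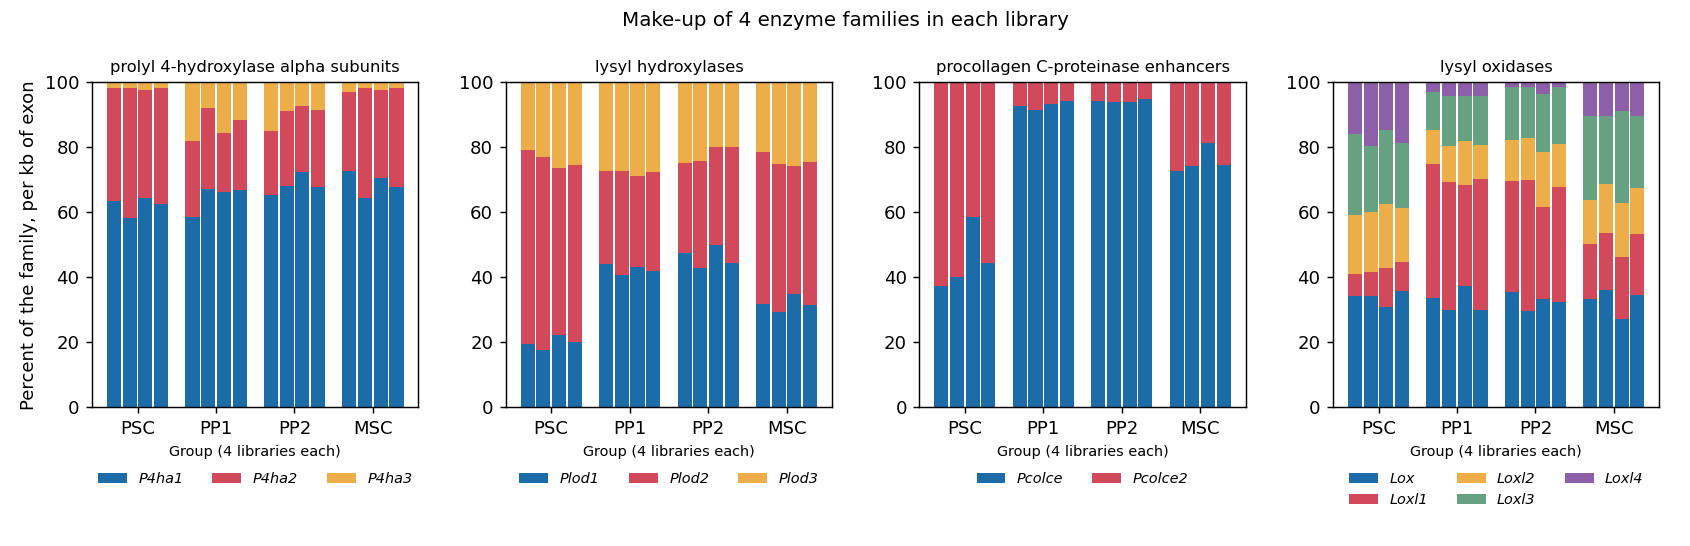
Share of each gene in its enzyme family in every library, in percent of the family's summed normalized counts per kilobase of exon; each bar is 1 library and colours mark the genes. The Pcolce2 share runs from 41.4% to 62.8% in the PSC libraries and from 5.08% to 8.59% in those of PP1 and PP2, and the Plod2 share averages 56.2% in PSC and 29.8% in PP1.

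Folding chaperones were higher in PSC or not called: 7 of 11 were higher and none lower than in PP1, 5 and none against PP2, and 8 and none against MSC. Of genes with a mean of at least 1000 normalized counts, 31.7%, 33.2% and 35.7% were called higher in PSC against PP1, PP2 and MSC. The 5 of 11 called against PP2 lie below the 54.5% of such genes called there in either direction. Without PP2 replicates 1 and 3 the count against PP2 was 4 of 11, near the 33.2% of such genes called higher with all libraries. The chondrocyte marker sum of every PSC library also exceeded those of all PP1 and PP2 libraries, and its part was not tested. Pdia6, Hspa5, Canx and Calr were higher in PSC than in each of the other 3 groups. HSPA5 (BiP) is the ER Hsp70 that binds unfolded chains, PDIA6 is a disulfide isomerase, and calnexin (CANX) and calreticulin (CALR) are lectins that retain glycoproteins until folded. These 4 genes also carry the ER stress response element in the 250 bases before their RefSeq start sites, and those windows are printed for that reason, on each gene's strand and 5′ to 3′ (RefSeq, GRCm38.p6). Capitals mark the element, which was searched on both strands as CCAAT, 9 further bases and CCACG, and is known as a target of ATF6 with NF-Y.
Pdia6, chr12:17266339-17266588, plus strand: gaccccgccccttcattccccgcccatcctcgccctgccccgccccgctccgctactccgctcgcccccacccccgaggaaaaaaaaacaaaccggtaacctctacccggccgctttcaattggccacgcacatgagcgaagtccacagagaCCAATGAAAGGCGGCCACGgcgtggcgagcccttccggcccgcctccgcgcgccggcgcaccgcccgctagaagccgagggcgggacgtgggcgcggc
Hspa5, chr2:34771840-34772089, plus strand: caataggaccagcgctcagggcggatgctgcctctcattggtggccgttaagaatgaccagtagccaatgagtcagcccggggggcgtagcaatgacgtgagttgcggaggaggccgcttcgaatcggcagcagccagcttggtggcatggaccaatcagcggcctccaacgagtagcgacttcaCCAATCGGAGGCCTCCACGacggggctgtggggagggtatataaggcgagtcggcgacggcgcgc
Canx, chr11:50325674-50325923, minus strand: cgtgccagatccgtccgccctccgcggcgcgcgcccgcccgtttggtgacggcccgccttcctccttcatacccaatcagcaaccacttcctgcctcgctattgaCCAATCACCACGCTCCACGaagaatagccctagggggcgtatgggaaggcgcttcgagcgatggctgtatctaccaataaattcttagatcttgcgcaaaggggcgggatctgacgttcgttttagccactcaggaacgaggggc
Calr, chr8:84846932-84847181, minus strand: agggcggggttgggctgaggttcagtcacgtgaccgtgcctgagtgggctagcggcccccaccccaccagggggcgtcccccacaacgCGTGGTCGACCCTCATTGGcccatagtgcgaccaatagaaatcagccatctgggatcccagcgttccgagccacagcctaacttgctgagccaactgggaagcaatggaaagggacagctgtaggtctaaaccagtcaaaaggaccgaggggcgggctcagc

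In Calr the element lies in reverse orientation. Of the 37 genes, 29 had a window (250 bases before to 50 after the start site) in the RefSeq table, and 5 of these 29 held the element: the 4 shown and Hsp90b1, which held it at 2 places. It was found in 0.119% of all 32851 windows. A shorter form, ATTGG, 1 base and CCACG, was in none of the 29 and in 0.0365% of all windows. The letters TGACGTGG, the unfolded protein response element, were in 2 (Sec23a and Sec24d; 0.676% of all windows) and their core ACGTG in 15 (19.6%), and the core lies within the longer motif. A match in this window is a description of its letters.

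Pdia6 was at 25746, 22467, 17551 and 20629.9 normalized counts in the 4 PSC libraries, 14308, 12733, 12133 and 13286 in MSC, 11915, 10259, 11100.1 and 10693 in PP1 and 13403, 11516, 10903 and 10800.1 in PP2. All PSC libraries lay above all others, and the MSC libraries overlapped PP2 but not PP1. Pdia6 was higher in PSC than in PP1 by 1.95-fold (log2 difference 0.96 ± 0.11 SE, adjusted p = 1.11e-06), than in PP2 by 1.84-fold (adjusted p = 3.22e-06) and than in MSC by 1.63-fold (adjusted p = 0.000102). Hspa5 came to 12949.5, 14265, 10739 and 13937 normalized counts in the 4 PSC libraries, 9492, 8452, 8523 and 9835 in MSC, 7380.4, 7835, 5795 and 7228 in PP1 and 7710.0, 6967, 7395 and 8716 in PP2. PSC again lay above the other 12 libraries. The differences were 1.84-fold (adjusted p = 5.01e-06) against PP1, 1.68-fold (adjusted p = 2.92e-05) against PP2 and 1.42-fold (adjusted p = 0.00224) against MSC. Hspa5 was lower in PP1 than in MSC by 1.29-fold (adjusted p = 0.0228), a call lost without PP1 replicate 3 (adjusted p = 0.0770), MSC replicate 1 or MSC replicate 4.

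Canx gave 7665, 9576, 7572 and 9291 normalized counts in the 4 PSC libraries, 5951, 6517, 7094 and 6328 in MSC, 4684, 4620.2, 4917 and 4344 in PP1 and 3934, 4331, 6534 and 4502 in PP2. Each PSC library exceeded every other library. PP2 replicate 3 was apart from the other PP2 libraries and reached into MSC. Canx was higher in PSC than in PP1 by 1.83-fold (adjusted p = 3.12e-05) and than in PP2 by 1.79-fold (adjusted p = 4.23e-05). It was also called higher than in MSC (1.31-fold, adjusted p = 0.0300), lost without PSC replicate 2 or 4 or MSC replicate 1, 2 or 4 (adjusted p up to 0.0977), and lower in PP2 than in MSC (1.37-fold, adjusted p = 0.0156), lost without PP2 replicate 1 (adjusted p = 0.0579) or MSC replicate 3. Canx was called lower in PP1 than in MSC as well, without overlap. That call was kept in all 26 alternatives, with log2 differences of -0.52 to -0.43. Calr measured 30535, 33609.8, 26292 and 31732 normalized counts in the 4 PSC libraries, 19374, 20454, 17524 and 20974 in MSC, 23455, 21212, 17944 and 21937 in PP1 and 22547, 21278, 17270.5 and 23054 in PP2. PSC did not overlap the others, which overlapped among themselves. Calr was higher in PSC by 1.45-fold (adjusted p = 0.00109) against PP1, 1.45-fold (adjusted p = 0.000895) against PP2 and 1.56-fold (adjusted p = 0.000365) against MSC. On GRCm38 (GENCODE M21) Pdia6 (ENSMUSG00000020571) spans 17266545 to 17284770 on chromosome 12, Hspa5 (ENSMUSG00000026864) spans 34771970 to 34777547 on chromosome 2, Canx (ENSMUSG00000020368) spans 50293961 to 50325673 on chromosome 11 and Calr (ENSMUSG00000003814) spans 84841850 to 84846934 on chromosome 8. RefSeq start sites, from which the printed windows were cut, can differ from these starts.

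Hsp90b1, the ER Hsp90 with 2 matches to the element, averaged 4329 ± 399 in PSC, 5005 ± 455 in MSC, 4076 ± 123 in PP1 and 4216 ± 582 in PP2 and did not pass the F test (adjusted p = 0.0875). Its PP1 to MSC call (1.22-fold, adjusted p = 0.0483) was lost in 11 of 16 leave-one-out fits (any PP1 or MSC library, PSC replicates 2 or 4, PP2 replicate 4; highest adjusted p 0.154, MSC replicate 3 omitted). Pdia3, the disulfide isomerase that works with calnexin and calreticulin, averaged 23681 in PSC, 19748 in MSC, 22549.6 in PP1 and 23411 in PP2; it was called higher in PSC than in MSC (1.20-fold, adjusted p = 0.0260) and in PP2 than in MSC (1.19-fold, adjusted p = 0.0388). Those calls were lost without PSC replicate 2 or 4 or MSC replicate 2 or 3 (adjusted p up to 0.0677), and without PP2 replicate 1 or 4 or any MSC library (adjusted p up to 0.0962). Pdia4 averaged 2321 in PSC, 2378 in MSC, 1596 in PP1 and 1683 in PP2 and was lower in PP1 than in MSC (1.49-fold, adjusted p = 0.0142). Its PSC calls against PP1 (1.43-fold, adjusted p = 0.0191) and PP2 (1.36-fold, adjusted p = 0.0406) were lost without PSC replicate 1 (adjusted p = 0.0772 and 0.148) and without PSC replicate 2. The first was also lost without PP1 replicate 2, the second without PSC replicate 4, PP2 replicate 1, 2 or 3 or MSC replicate 4. The PP2 to MSC call of Pdia4 (1.42-fold, adjusted p = 0.0278) was lost without PP2 replicate 1 or 2 or MSC replicate 1, 3 or 4 (adjusted p up to 0.0819).

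Of the collagen-directed chaperones, Serpinh1, Ppib and Fkbp14 were higher in PSC than in MSC. Serpinh1, which encodes HSP47, had the highest level per kilobase of the 37 genes, 56389.8 normalized counts per kilobase in PSC, 41899.5 in MSC, 50834 in PP1 and 50008 in PP2. It was higher in PSC than in MSC by 1.35-fold (adjusted p = 0.0155), lost without PSC replicate 2 (adjusted p = 0.0502), and was not called against PP1 (adjusted p = 0.408) or PP2 (adjusted p = 0.322). Ppib, cyclophilin B, averaged 17145 ± 364 in PSC, 11138 ± 957 in MSC, 15704 ± 2127 in PP1 and 16310.2 ± 2398 in PP2 and was lower in MSC than in PSC (1.54-fold, adjusted p = 0.000467), PP1 (1.40-fold, adjusted p = 0.00411) and PP2 (1.46-fold, adjusted p = 0.00163); antisense Snx22 overlaps 25.0% of its exon bases. Fkbp14 averaged 8326 in PSC, 6123 in MSC, 6798 in PP1 and 7297 in PP2 and was higher in PSC than in MSC (1.36-fold, adjusted p = 0.00656). Its call against PP1 (1.23-fold, adjusted p = 0.0448) was lost without PSC replicate 1, 2 or 4, PP1 replicate 1, 3 or 4 or MSC replicate 1, 2 or 4 (adjusted p up to 0.169 without PP1 replicate 3). Fkbp10, a prolyl isomerase that binds procollagen, averaged 34724 in PSC, 34410.1 in MSC, 28770.1 in PP1 and 30152 in PP2 and did not pass the F test (adjusted p = 0.0574). Its call against PP1 (1.21-fold, adjusted p = 0.0393) was lost without any 1 PSC library, PP1 replicate 1 or 2 or MSC replicate 4 (adjusted p up to 0.133).

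**Figure D4:**
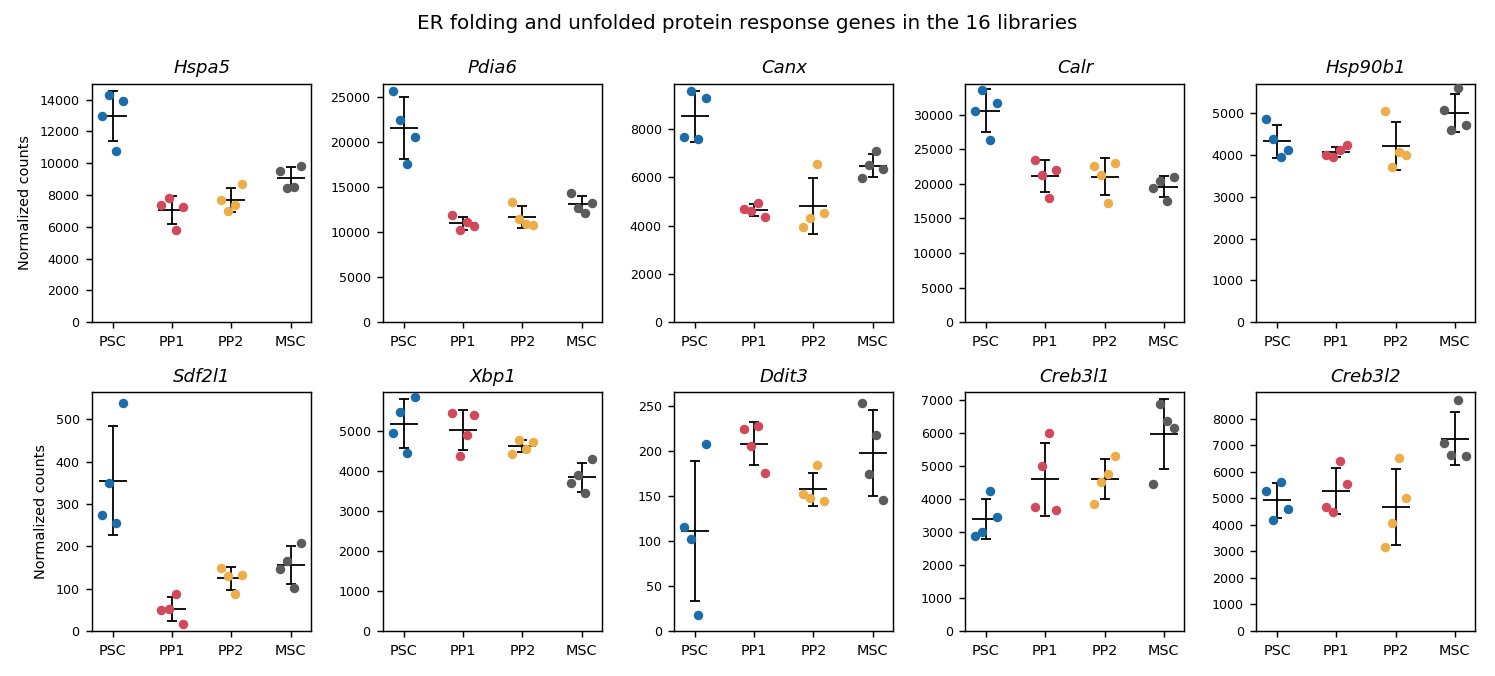
Normalized counts of 10 folding and unfolded protein response genes in the 16 libraries (points), with mean (line) and SD (bars), n = 4 a group. Hspa5, Pdia6, Canx and Calr lie higher in all 4 PSC libraries than elsewhere, Ddit3 overlaps across all groups and Hsp90b1 across all but PP1 and MSC, and Creb3l1 and Creb3l2 have their highest means in MSC.

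Of the 3 export genes, Sec23a was higher in PSC than in the other groups, Mia3 was lower in PSC than in MSC, and Sec24d was not called in any comparison. SEC23A is an inner coat subunit of COPII carriers, SEC24D its cargo adaptor, and MIA3 (TANGO1) the receptor that loads procollagen. Sec23a stood at 5825, 5873, 4849 and 4892 normalized counts in the 4 PSC libraries, 3975, 3703, 3964 and 3361 in MSC, 2808, 2653, 3548 and 2577 in PP1 and 3149, 2719, 2634 and 3101 in PP2. PSC lay above all other libraries, with MSC between PSC and most PP1 and PP2 libraries. Sec23a was higher in PSC than in PP1 by 1.86-fold (log2 difference 0.89 ± 0.11 SE, adjusted p = 5.24e-06), than in PP2 by 1.85-fold (adjusted p = 5.62e-06) and than in MSC by 1.43-fold (adjusted p = 0.00252). Its lower level in PP1 than in MSC (1.30-fold, adjusted p = 0.0211) was lost without PP1 replicate 2 or 4 or MSC replicate 1 or 3 (adjusted p up to 0.0662), and that in PP2 (1.29-fold, adjusted p = 0.0223) without PP2 replicate 2 or 3 or MSC replicate 1 or 3 (adjusted p up to 0.0683). Mia3 measured 526, 366, 545 and 243 normalized counts in the 4 PSC libraries, 1179, 805, 1218 and 913 in MSC, 689, 506, 421 and 747 in PP1 and 510.0, 369.6, 391 and 547 in PP2. The 4 MSC libraries lay above all others, and PSC, PP1 and PP2 overlapped. Mia3 was lower in PSC than in MSC by 2.53-fold (log2 difference -1.34 ± 0.26 SE, adjusted p = 0.000973) and in PP2 by 2.26-fold (adjusted p = 0.00293). The PP1 to MSC call (1.76-fold, adjusted p = 0.0330) was lost without PP1 replicate 2 or 3 or MSC replicate 1 or 3 (adjusted p up to 0.106 without MSC replicate 3). Sec24d gave 4243, 4566, 5852 and 4471 normalized counts in the 4 PSC libraries, 4700.2, 5284, 5552 and 4381 in MSC, 4285, 5683, 5709.8 and 5277 in PP1 and 4551, 5300.1, 7304 and 5368 in PP2. All 4 groups overlapped, and no comparison passed (F test adjusted p = 0.507). On GRCm38, Sec23a (ENSMUSG00000020986) spans 58958383 to 59012017 on chromosome 12, and Mia3 (ENSMUSG00000056050) spans 183326725 to 183369553 on chromosome 1.

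Genes of propeptide cleavage ran in opposite directions. PCOLCE and PCOLCE2 bind the C-propeptide and enhance its removal, and BMP1 and TLL1 are the tolloid proteinases that cut it. Pcolce2 was higher in PSC than in every other group, while Pcolce, Bmp1 and Tll1 were lower in PSC than in PP1 and PP2 (2 of them, Pcolce and Tll1, against PP2 without its replicates 1 and 3). Pcolce2 reached 26762, 29621, 21941 and 28980.3 normalized counts in the 4 PSC libraries, 8546, 9779.8, 7055 and 9445 in MSC, 4470.4, 4618, 4339 and 3307 in PP1 and 3856, 3625, 3893 and 2981 in PP2. PSC lay far above the rest without overlap, MSC came next, and PP1 and PP2 were low and overlapped. Pcolce2 was higher in PSC than in PP2 by 7.46-fold (log2 difference 2.90 ± 0.13 SE, adjusted p = 1.41e-11), than in PP1 by 6.42-fold (adjusted p = 4.13e-11) and than in MSC by 3.08-fold (adjusted p = 1.43e-07). It was lower in PP1 than in MSC by 2.08-fold (adjusted p = 1.06e-05) and in PP2 by 2.42-fold (adjusted p = 1.07e-06).

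Pcolce measured 13125, 16458, 25648 and 19086 normalized counts in the 4 PSC libraries, 18743, 23420.3, 25630.2 and 22965 in MSC, 47659, 40632, 49795 and 46132 in PP1 and 52000.4, 45351, 49380.3 and 46051 in PP2. Here PP1 and PP2 were high and overlapped, and the PSC and MSC libraries overlapped below them. Pcolce was lower in PSC than in PP1 by 2.55-fold (log2 difference -1.35 ± 0.15 SE, adjusted p = 1.14e-06) and than in PP2 by 2.67-fold (adjusted p = 5.81e-07), and was not called between PSC and MSC (adjusted p = 0.130). MSC was lower than PP1 by 2.04-fold (adjusted p = 7.34e-05) and than PP2 by 2.13-fold (adjusted p = 3.11e-05). Within a library, the per-kilobase ratio of Pcolce2 to Pcolce was 0.707 to 1.69 in PSC, 0.228 to 0.377 in MSC, 0.0593 to 0.0939 in PP1 and 0.0535 to 0.0661 in PP2. This pair was chosen after its values were seen, so the ratio has no test. The fibroblast marker sum, like Pcolce, was higher in every PP1 and PP2 library than in any PSC or MSC library, and its part was not tested. PSC replicate 3 had the lowest PSC ratio and was still above every library of the other groups. Pcolce2 made up 54.9% ± 9.45 of the enhancer transcripts per kilobase in PSC, 24.2% ± 3.90 in MSC, 7.02% ± 1.24 in PP1 and 5.79% ± 0.510 in PP2.

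Bmp1 came to 6456, 6255, 7064 and 6165 normalized counts in the 4 PSC libraries, 10064, 11208, 11203 and 10177 in MSC, 8944, 8569, 8442 and 8263 in PP1 and 8490.3, 7855, 9133 and 7557 in PP2. PSC was lowest and MSC highest, neither overlapping another group, and PP1 and PP2 overlapped between them. Bmp1 was lower in PSC by 1.64-fold (adjusted p = 5.75e-06) against MSC, 1.32-fold (adjusted p = 0.000878) against PP1 and 1.27-fold (adjusted p = 0.00283) against PP2. The PP2 call was lost when PP2 replicates 1 and 3 were left out together (adjusted p = 0.0594). MSC exceeded PP1 by 1.25-fold (adjusted p = 0.00939) and PP2 by 1.29-fold (adjusted p = 0.00273). Tll1 was at 41.3, 26.1, 9.05 and 5.81 normalized counts in the 4 PSC libraries, 160.5, 194, 306 and 196 in MSC, 270.2, 279, 119 and 224 in PP1 and 96.7, 181, 248 and 139.6 in PP2. The PSC libraries held 37, 26, 9 and 5 reads and lay below all others, which overlapped. On the log2(normalized count + 1) scale Tll1 was lower in PSC than in PP1 by 12.7-fold (log2 difference -3.67 ± 0.59 SE, adjusted p = 7.54e-05), than in PP2 by 9.43-fold (adjusted p = 0.000262) and than in MSC by 12.5-fold (adjusted p = 0.000182), and at these counts the size of the fold depends on the pseudocount. On GRCm38 (GENCODE M21) Pcolce2 (ENSMUSG00000015354) spans 95637601 to 95698096 on chromosome 9, Pcolce (ENSMUSG00000029718) spans 137605103 to 137613784 on chromosome 5, Bmp1 (ENSMUSG00000022098) spans 70474558 to 70520234 on chromosome 14 and Tll1 (ENSMUSG00000053626) spans 64014931 to 64206271 on chromosome 8.

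**Figure D5:**
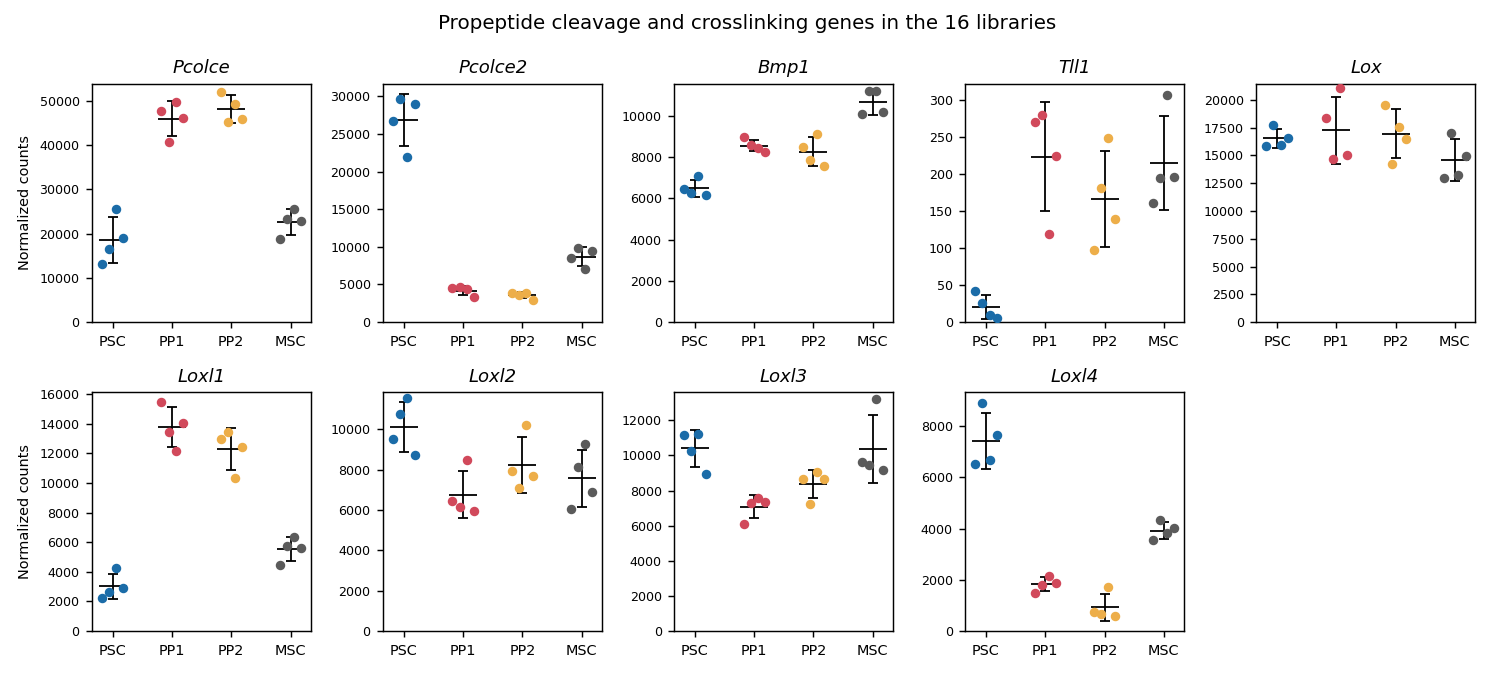
Normalized counts of the 4 propeptide cleavage and 5 crosslinking genes in the 16 libraries (points), with mean (line) and SD (bars), n = 4 a group. Pcolce2 and Loxl4 are highest in PSC (means 26826 and 7440.1), Pcolce and Loxl1 are highest in PP1 and PP2, and Lox overlaps across the 4 groups.

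Lysyl oxidases convert lysines and hydroxylysines to the aldehydes from which collagen and elastin crosslinks form. Of the 5, Loxl4 was higher and Loxl1 lower in PSC than in each other group, and Lox did not pass the F test. Loxl1 measured 2246, 2652, 4239 and 2922 normalized counts in the 4 PSC libraries, 4468, 5711, 6367 and 5589 in MSC, 15461, 13453, 12181 and 14079 in PP1 and 12967, 13478, 10305 and 12466 in PP2. PSC was lowest, MSC next, and PP1 and PP2 overlapped above them. Loxl1, which in mice is known for elastic fibre upkeep, was lower in PSC than in PP1 by 4.69-fold (log2 difference -2.23 ± 0.15 SE, adjusted p = 2.08e-09), than in PP2 by 4.18-fold (adjusted p = 5.25e-09) and than in MSC by 1.87-fold (adjusted p = 0.000306). It was higher in PP1 than in MSC by 2.50-fold (adjusted p = 5.11e-06) and in PP2 by 2.23-fold (adjusted p = 2.08e-05).

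Loxl4 gave 6515, 8899.5, 6686 and 7659 normalized counts in the 4 PSC libraries, 3533, 4320.4, 3816 and 4006 in MSC, 1466, 1806, 2149 and 1867 in PP1 and 731, 670.0, 1711 and 599 in PP2. PSC and MSC did not overlap any other group, PP1 lay lower, and the PP2 libraries were lowest except replicate 3, which fell within PP1. Loxl4 was higher in PSC than in PP2 by 8.76-fold (log2 difference 3.13 ± 0.23 SE, adjusted p = 3.94e-09), than in PP1 by 4.09-fold (adjusted p = 1.28e-06) and than in MSC by 1.89-fold (adjusted p = 0.00616). MSC exceeded PP2 by 4.64-fold (adjusted p = 1.13e-06) and PP1 by 2.16-fold (adjusted p = 0.00175). Between PP1 and PP2 Loxl4 was the single member called, 2.14-fold (adjusted p = 0.0234) higher in PP1. That call was lost without PP1 replicate 2, 3 or 4 or PP2 replicate 1, 2 or 4 (highest adjusted p 0.0695, PP1 replicate 3 omitted), and was kept without PP2 replicate 3. The per-kilobase ratio of Loxl4 to Loxl1, another pair chosen after its values were seen, was 1.23 to 2.63 in PSC, 0.469 to 0.619 in MSC, 0.0742 to 0.138 in PP1 and 0.0376 to 0.130 in PP2. Loxl4 made up 17.2% ± 2.25 of lysyl oxidase transcripts per kilobase in PSC and 2.02% ± 1.11 in PP2, while Loxl1 made up 8.86% ± 2.24 and 34.6% ± 5.0.

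Loxl3 stood at 11155, 10281, 11228 and 8940.4 normalized counts in the 4 PSC libraries, 9622, 9463, 13241 and 9172 in MSC, 6090.2, 7316, 7548 and 7355 in PP1 and 8639, 7241, 9032 and 8647 in PP2. All PP1 libraries lay below PSC and MSC, all PP2 libraries lay below MSC, and the other pairs of groups overlapped. Loxl3, whose loss in mice gives cleft palate and spine defects, was higher in PSC than in PP1 by 1.47-fold (adjusted p = 0.00132) and lower in PP1 than in MSC by 1.45-fold (adjusted p = 0.00296). Antisense Htra2 overlaps 11.6% of its exon bases. Loxl2 measured 9526, 10729.9, 11528 and 8716 normalized counts in the 4 PSC libraries, 6024, 8139, 9254 and 6889.8 in MSC, 6435, 6123, 8489 and 5952 in PP1 and 7945, 7086, 10221 and 7676 in PP2. The PSC libraries lay above those of PP1, and the other groups overlapped one another. Loxl2 was higher in PSC than in PP1 by 1.51-fold (adjusted p = 0.00401), and its call against MSC (1.35-fold, adjusted p = 0.0361) was lost without PSC replicate 1, 2 or 3 or MSC replicate 1 or 4 (adjusted p up to 0.139 without MSC replicate 1). Of its 50-base stretches 45% also occur in other genes, with Gm21451 and Gm16867 sharing the most, so its level is uncertain. Lox, the founding member of the family, averaged 16529 ± 873 in PSC, 14554 ± 1887 in MSC, 17258 ± 3001 in PP1 and 16929 ± 2199 in PP2 and overlapped across the groups (F test adjusted p = 0.305). Its share of the family per kilobase was 33.7% ± 1.99 in PSC, 32.8% ± 3.92 in MSC, 32.6% ± 3.58 in PP1 and 32.6% ± 2.45 in PP2. On GRCm38, Loxl1 (ENSMUSG00000032334) spans 58287738 to 58313186 on chromosome 9, and Loxl4 (ENSMUSG00000025185) spans 42593982 to 42612813 on chromosome 19.

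Genes of the unfolded protein response did not move as 1 block. Of the 6, Sdf2l1 was higher and none lower in PSC than in PP1; against PP2 Sdf2l1 was higher and Creb3l1 lower, and against MSC Xbp1 was higher and Creb3l1 and Creb3l2 lower. Without PP2 replicates 1 and 3 none of the 6 was called against PP2 by limma. The 1 of 6 called against PP1 lies below the 31.2% of all genes called there. The 2 of 6 called against PP2 lie near the 32.8% of all genes. Against MSC the 3 of 6 lie near the 51.6% of genes with a mean of at least 1000, with 26.3% of all genes called. SDF2L1 is an ER protein that works with BiP co-chaperones and is a known target of the response. Sdf2l1 was at 275, 350.0, 255 and 538 normalized counts in the 4 PSC libraries, 146, 165, 101 and 209 in MSC, 49.7, 52.0, 86.8 and 16.8 in PP1 and 149, 129, 86.2 and 132 in PP2. PSC lay above all other libraries, and PP1 was lowest, overlapping PP2. Sdf2l1 was higher in PSC than in PP1 by 7.51-fold (log2 difference 2.91 ± 0.50 SE, adjusted p = 0.000147) and than in PP2 by 2.77-fold (adjusted p = 0.0289), the latter lost without PSC replicate 2 or 4 or PP2 replicate 3 (adjusted p up to 0.10 without PSC replicate 4). It was not called against MSC (2.25-fold, adjusted p = 0.0924), although the groups did not overlap. Its lower level in PP1 than in MSC (3.34-fold, adjusted p = 0.0168) was lost without MSC replicate 4 (adjusted p = 0.0585).

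CREB3L1 (OASIS) and CREB3L2 (BBF2H7) are ER-anchored transcription factors, known in mice for type I collagen production in bone and for COPII secretion in cartilage. Creb3l1 measured 2862, 3001, 4219.6 and 3453 normalized counts in the 4 PSC libraries, 4433, 6872, 6352 and 6135 in MSC, 3734, 4975, 5973 and 3643 in PP1 and 3835, 4512, 4739 and 5282 in PP2. PSC lay below MSC without overlap, and PP1 and PP2 overlapped both. Creb3l1 was lower in PSC than in MSC by 1.75-fold (log2 difference -0.81 ± 0.17 SE, adjusted p = 0.00157). Its call against PP2 (1.36-fold, adjusted p = 0.0482) was lost in 10 of 16 leave-one-out fits (PSC replicates 1, 2 and 4, PP1 replicate 2, PP2 replicates 2, 3 and 4, and MSC replicates 2, 3 and 4), the highest adjusted p being 0.140 (PSC replicate 1 omitted). Creb3l2 gave 5286, 4173, 5607 and 4581 normalized counts in the 4 PSC libraries, 7060.2, 6607, 8708 and 6581 in MSC, 4678, 4476, 6392 and 5543 in PP1 and 3174, 4046, 6512 and 4987 in PP2. MSC lay above all other libraries, which overlapped. Creb3l2 was lower in PP2 than in MSC by 1.59-fold (adjusted p = 0.00852) and in PSC by 1.47-fold (adjusted p = 0.0230), the latter lost without PSC replicate 2 or 4 or MSC replicate 3 (adjusted p up to 0.0882 without MSC replicate 3).

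Xbp1 came to 4945, 5469, 4446 and 5834 normalized counts in the 4 PSC libraries, 3687, 3893, 3453 and 4298 in MSC, 5429.9, 4376, 4879 and 5389 in PP1 and 4427, 4766, 4545 and 4717 in PP2. MSC was lowest without overlap, and PSC, PP1 and PP2 overlapped. Xbp1 was higher in PSC than in MSC by 1.35-fold (adjusted p = 0.00410) and in PP1 by 1.31-fold (adjusted p = 0.00994). XBP1 is activated by splicing of its RNA, which gene counts do not show. Ddit3 (CHOP), a factor of prolonged stress, held 115, 102, 18.1 and 208 in PSC against 175 to 228 in PP1, 145 to 184 in PP2 and 145 to 253 in MSC, and did not pass the F test (adjusted p = 0.156). Dnajb9, a BiP co-chaperone, averaged 1979 ± 101 in PSC, 1972 ± 205 in MSC, 2233 ± 242 in PP1 and 2252 ± 250.1 in PP2 and did not pass either (adjusted p = 0.281). On GRCm38, Sdf2l1 (ENSMUSG00000022769) spans 17130138 to 17132383 on chromosome 16, and Creb3l1 (ENSMUSG00000027230) spans 91982328 to 92024502 on chromosome 2.

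Other genes of the same route were counted from lists set by function. Of 11 other collagen modification genes, 7 were higher and 2 lower in PSC than in PP1, 6 and 2 against PP2, with or without PP2 replicates 1 and 3, and 5 and 1 against MSC. For these lists too, all genes were called in 31.2%, 32.8% and 26.3% of cases against PP1, PP2 and MSC, and genes with a mean of at least 1000 in 53.0%, 54.5% and 51.6%. The 6 of 11 called against MSC lie near the latter share. COLGALT2, which adds galactose to hydroxylysine, averaged 4886 ± 1268 in PSC, 2564 ± 147 in MSC, 729 ± 160.2 in PP1 and 1165 ± 180.0 in PP2 and was higher in PSC than in PP1 by 6.67-fold (adjusted p = 6.19e-10), than in PP2 by 4.14-fold (adjusted p = 2.64e-08) and than in MSC by 1.87-fold (adjusted p = 0.000851). Leprel1, the older symbol of the prolyl 3-hydroxylase gene P3h2, averaged 4353 ± 779 in PSC, 3587 ± 411 in MSC, 848 ± 238 in PP1 and 695 ± 243 in PP2; PSC exceeded PP1 by 5.22-fold (adjusted p = 1.02e-07) and PP2 by 6.48-fold (adjusted p = 1.93e-08) but was not called against MSC (adjusted p = 0.422). Fkbp7, a further ER prolyl isomerase, was lower in PSC than in PP1 by 2.10-fold (adjusted p = 1.68e-06) and than in PP2 by 2.16-fold (adjusted p = 9.60e-07).

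Of 19 other export genes, 11 were higher and 1 lower in PSC than in PP1, 11 and 0 against PP2 (9 and 0 without PP2 replicates 1 and 3), and 12 and 2 against MSC. The 11 of 19 called against PP2 lie near the 54.5% of abundant genes. Sec13, an outer COPII coat subunit, averaged 11207 ± 1317 in PSC, 5688 ± 1017 in MSC, 6566 ± 742 in PP1 and 6435 ± 1509.8 in PP2 and was higher in PSC by 1.71-fold (adjusted p = 0.000826), 1.77-fold (adjusted p = 0.000426) and 1.99-fold (adjusted p = 0.000151) against PP1, PP2 and MSC. Kdelr2 and Kdelr3, receptors that return chaperones to the ER, were higher in PSC by 1.41-fold and 1.36-fold against PP1 (adjusted p = 7.02e-05 and 0.00141). Of 4 other procollagen proteinases, 1 was higher and 1 lower in PSC than in PP1 and in PP2, and 2 (Adamts2 and Tll2) were lower than in MSC. Adamts2, an N-proteinase, averaged 856 ± 77.2 in PSC, 2122 ± 331 in MSC, 3296 ± 614 in PP1 and 2889 ± 614 in PP2 and was lower in PSC than in PP1 by 3.82-fold (adjusted p = 1.91e-08), in PP2 by 3.33-fold (adjusted p = 7.21e-08) and in MSC by 2.46-fold (adjusted p = 1.06e-05). Its relative Adamts3 averaged 1239.6 ± 235 in PSC, 1389 ± 189 in MSC, 478 ± 75.7 in PP1 and 441 ± 141 in PP2 and was higher in PSC than in PP1 by 2.58-fold (adjusted p = 4.70e-05) and in PP2 by 2.87-fold (adjusted p = 1.30e-05), with no call against MSC (adjusted p = 0.605). Tll2, a further tolloid proteinase, was listed at 0 in all 4 PSC libraries and at 24.0, 13, 12.0 and 16.9 in MSC. It was at 0 in 3 of 4 PP1 libraries and 2 of 4 PP2 libraries. Tll2 thus met the filter on low values only with its MSC libraries. That favours its call as lower in PSC than in MSC, which is therefore not read as a result. It did not pass the F test (adjusted p = 0.0853).

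Of 28 other unfolded protein response genes, 15 were higher and 2 lower in PSC than in PP1, 13 and 2 against PP2 (11 and 2 without PP2 replicates 1 and 3), and 9 and 1 against MSC. The 15 of 28 called against PP2 lie near the 54.5% of abundant genes, and the 10 of 28 called against MSC lie between 26.3% of all genes and 51.6% of abundant ones. The named ones are Derl1, a subunit of ER-associated degradation, higher in PSC by 1.39-fold (adjusted p = 0.000168), 1.34-fold (adjusted p = 0.000478) and 1.54-fold (adjusted p = 2.29e-05) against PP1, PP2 and MSC, and Asns and Ddit4, which are targets of ATF4. Asns was higher by 2.97-fold (adjusted p = 1.75e-08), 2.45-fold (adjusted p = 1.98e-07) and 1.62-fold (adjusted p = 0.000565) in the same order. Ddit4 was higher by 3.68-fold (adjusted p = 4.18e-08), 4.02-fold (adjusted p = 1.69e-08) and 1.79-fold (adjusted p = 0.000945). Asns and Ddit4 were named for their F test p and do not stand for all targets of ATF4. Chac1, Trib3 and Ppp1r15a of this list had their highest means in MSC, at 586, 365 and 982 (F test adjusted p = 0.00187, 0.0149 and 0.0122). Of the 19 genes of the list that passed the F test, 13 were highest in PSC, 5 in MSC and 1 in PP2. Between PP1 and PP2 none of the 73 listed genes was called by limma (10 at an unadjusted p below 0.05), none by edgeR and 3 by DESeq2. The median log2 difference of PSC against PP1 was 0.48 for the export list and 0.52 for the unfolded protein response list. Beside these it was 0.04 over all genes and 0.12 over genes with a mean of at least 1000. Mia2, Mep1a and Mep1b did not pass the filter on low values and were not tested.

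The substrates of this machinery stood as follows. Of 11 fibrillar collagen genes, 4 were higher and 7 lower in PSC than in PP1, 3 and 7 against PP2 (3 and 5 without PP2 replicates 1 and 3), and 0 and 6 against MSC. The 6 of 11 called against MSC lie near the 51.6% of abundant genes. Col1a1 measured 504224, 687232, 1110649 and 926983 normalized counts in PSC, 498353, 1201704, 1112113 and 884098 in MSC, 1468721, 1625846, 2401273 and 1646110.2 in PP1 and 1365249, 1319732, 1931634 and 1526015 in PP2, PP1 and PP2 lying above all PSC and MSC libraries. It was lower in PSC than in PP1 by 2.27-fold (adjusted p = 0.0107) and than in PP2 by 1.96-fold (adjusted p = 0.0311). Col2a1, the cartilage fibrillar collagen, averaged 2697025 ± 755307 in PSC, 6124691 ± 1253794 in MSC, 1112588 ± 116659 in PP1 and 1606779 ± 192398 in PP2 and was higher in PSC than in PP1 by 2.37-fold (adjusted p = 0.00902) and lower than in MSC by 2.3-fold (adjusted p = 0.0139). Col3a1 averaged 41445 ± 13439.5 in PSC, 59652 ± 16464 in MSC, 332328 ± 63154 in PP1 and 304626 ± 52007 in PP2, Col5a3 344 ± 223 in PSC, 1794 ± 202 in MSC, 5932 ± 960.0 in PP1 and 7401 ± 2029 in PP2 and Col27a1 13343 ± 4173 in PSC, 17551 ± 2298 in MSC, 3472 ± 644 in PP1 and 3244 ± 596 in PP2. Col3a1 was lower in PSC than in PP1 by 8.20-fold (adjusted p = 3.08e-09) and Col5a3 by 20.6-fold (adjusted p = 7.93e-09), while Col27a1 was higher by 3.76-fold (adjusted p = 1.16e-07). Col1a1 and Col2a1 were named after their values were seen. No relation between the collagens and the enzymes above was tested.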

How the data were processed

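RNA from 16 sorted mouse cell libraries (4 each of PSC, PP1, PP2 and MSC) was measured by sequencing. Per the submitters' processing notes, the tools were bcl2fastq 2.17, cutadapt, TopHat2 2.0.11, HTSeq 0.6.1 and DESeq2 1.6.3 with the mm10 build; the sources used here give neither their order nor the strand setting. The table the authors deposited holds signal values for 22559 genes, that is gene counts divided by 1 size factor per library: 100% of values were whole reads after division by the library's step (tolerance 1e-06). No column was left out, and depth ran from 22.3 to 48.4 M reads.

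Since the table holds normalized values, limma 3.58.1 (R 4.3.3, intensity trend) was fitted to log2(normalized count + 1) of all 16 libraries with group as the only term, on the 13797 genes with at least 10 normalized counts in at least 4 libraries. Tests were two-sided, adjusted by Benjamini-Hochberg over all genes within each of 6 comparisons and the F test, with a threshold of 0.05. Folds are 2 to the power of the log2 difference, on the log2(value + 1) scale, and SE is that of the difference. The procedure was tested on simulated data. Alternatives were pseudocounts of 0.5 and 8, no filter, at least 50 in 4 libraries, TMM rescaling, a replicate block, edgeR 4.0.16 and DESeq2 1.42.0 on recovered reads, the 8 libraries compared alone, PP2 replicates 1 and 3 left out, and each library left out. TMM moved the median of all genes by at most 0.04 on the log2 scale. On recovered reads edgeR called 3319, 4007, 4201, 85, 2563 and 2791 genes for PSC against MSC, PP1 and PP2, PP1 against PP2, and PP1 and PP2 against MSC.

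The genes, the other lists and the markers were chosen with earlier results of these data known. In each class the libraries of up to 4 genes with the smallest F test p and a group mean of at least 100 are printed, and of each other list the 3 genes with the smallest F test p are named; exceptions are stated. Exon lengths and overlaps came from GENCODE M21 (GRCm38), and promoter windows from RefSeq (GRCm38.p6). An exon length is that of the merged exons of all annotated transcripts of a gene, which can differ from the expressed RNA. Levels per kilobase of different genes are therefore approximate. Of the 9 chondrocyte markers 8 were in the table. Replicate libraries differed by more than counting error on PCR reads, so none was treated as 1 library deposited in 2 columns; this does not show that they are separate animals.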

Additional observations from a re-analysis of the deposited data

Results flagged for a closer look

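In 7 of the 148 combinations of a gene and a group, 1 library lay further from the other 3 than Dixon's 95% limit for 4 samples. Chance alone gives about 1 such case in 20, and no explanation was weighed. The cases were 5 high and 2 low libraries. P4ha1 in PSC replicate 1 was high, at 19439.9 normalized counts against 16954 to 17081 in the other 3 libraries. P4ha3 in PP2 replicate 1 was high, at 1796 normalized counts against 881 to 1026 in the other 3 libraries. Plod2 in MSC replicate 2 was high, at 11512 normalized counts against 10046 to 10279 in the other 3 libraries. Ppib in MSC replicate 3 was low, at 9713 normalized counts against 11455 to 11726 in the other 3 libraries. Loxl3 in PP1 replicate 1 was low, at 6090.2 normalized counts against 7316 to 7548 in the other 3 libraries. Loxl3 in MSC replicate 3 was high, at 13241 normalized counts against 9172 to 9622 in the other 3 libraries. Loxl4 in PP2 replicate 3 was high, at 1711 normalized counts against 599 to 731 in the other 3 libraries.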

How the results depend on the processing

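Of 105 member differences called in the 6 comparisons, 81 stayed called under every alternative run for them, 24 were lost under at least 1, and none reversed. Of 2730 alternative fits, 2582 kept the call, and none moved a called difference by over 1.5-fold. Left-out libraries gave 19 to 25 members called between PSC and MSC, 20 to 25 between PSC and PP1, 17 to 22 between PSC and PP2, 0 to 1 between PP1 and PP2, 16 to 20 between PP1 and MSC, 12 to 18 between PP2 and MSC, and 27 to 32 in the F test. The single PP1 to PP2 call became 0 with edgeR on recovered reads and with only the 8 libraries compared; the cause was not tested. With the replicate number as a block it became 2, adding Plod1 (log2 difference -0.32 ± 0.08 SE, adjusted p = 0.0397 in limma). Deviations of same-numbered libraries correlated at -0.018 to 0.149 across genes, and those of differently numbered libraries at -0.092 to 0.053. The highest value was that of PSC and MSC replicates 4. All same-numbered values were positive except that of PSC and PP1 replicates 1 (-0.018), and most of the differently numbered ones were negative. Libraries of the same number thus tended to vary together, though weakly. What the numbers stand for is not in the labels and was not tested. The main fit has group as its only term and leaves out any such pairing. With the replicate block 25, 26, 24, 25 and 25 members were called for PSC against MSC, PP1 and PP2 and for PP1 and PP2 against MSC, and 32 in the F test. The main fit called 24, 23, 21, 19 and 17 in the same order, and 30 in the F test. Over the whole table DESeq2 called 412 genes between PP1 and PP2, limma 115 and edgeR 85. Depth limits Tll1 in PSC (5 to 37 reads a library) and Sdf2l1 in PP1 (12 to 88 reads).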

Other observations

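Summed over a class and divided by exon length, the transcripts stood at the following normalized counts per kilobase (mean ± SD, n = 4 each), given as a description. Hydroxylation genes summed to 68296 ± 2500.1 in PSC, 50600.1 ± 1320.2 in MSC, 48139 ± 2645 in PP1 and 55708 ± 1443 in PP2. Folding chaperones came to 106257 ± 8118 in PSC, 80819.7 ± 4771 in MSC, 88818 ± 5750.1 in PP1 and 89445 ± 5770.0 in PP2, and export genes to 1958 ± 126 in PSC, 1794 ± 156 in MSC, 1560.0 ± 131 in PP1 and 1592 ± 144 in PP2. Propeptide cleavage genes reached 11394 ± 1021 in PSC, 9047 ± 775 in MSC, 13945 ± 1004 in PP1 and 14335 ± 929 in PP2, so their sum was lowest in MSC although 2 of the 4 genes were higher there than in PSC. Crosslinking genes summed to 10273 ± 627 in PSC, 9310.2 ± 936 in MSC, 11015 ± 706 in PP1 and 10841 ± 604 in PP2. Unfolded protein response genes summed to 4728 ± 333 in PSC, 5488 ± 344 in MSC, 5073 ± 452 in PP1 and 4915 ± 418 in PP2. Of the pair Creb3l1 and Creb3l2, Creb3l1 made up 65.7% ± 3.65 of the transcripts per kilobase in PSC, 69.4% ± 4.86 in MSC, 70.5% ± 4.65 in PP1 and 73.7% ± 4.52 in PP2.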
